A study of Mus musculus with 6 samples.

Results

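The genes described here encode proteins of the elastic fibre and the microfibril, and they were followed in open chromatin of the mouse palate. There were 10 of them, out of 21911 annotated protein-coding genes: the fibrillins Fbn1 and Fbn2, elastin (Eln), the fibulins Fbln1, Fbln2 and Fbln5, the microfibril-associated Mfap2, Mfap4 and Mfap5, and lysyl oxidase (Lox). They were chosen by name for what their proteins do, and a peak belonged to a gene when its midpoint lay in the gene body or within 100 kb of the gene's start site. ATAC-seq, in which the transposase Tn5 cuts open chromatin, was run on palatal epithelium (3 libraries) and on palatal mesenchyme (3 libraries) of C57BL/6 embryos at E14.5. After a trypsin digest the epithelial sheet was peeled from each shelf under a microscope, and the mesenchyme libraries were made from what remained, which was largely but not only mesenchyme. No allele, transgene or drug distinguished the tissues, and each library pooled about 20000 cells from several embryos.

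Each library is known here only as a list of called peaks with no height or score. The lists held 270003 to 349322 peaks in epithelium and 295141 to 341741 in mesenchyme, covered 125.15 to 168.81 Mb in epithelium and 143.66 to 164.42 Mb in mesenchyme, and had median peak widths of 331 to 344 bp. Of the genes that mark palate epithelium, 5 of 10 (Trp63, Krt5, Krt14, Cdh1 and Esrp1) had more bases under peaks in epithelium in the limma fit described below. Of the genes that mark palate mesenchyme, 2 of 10 (Prrx1 and Col1a1) had fewer. Over all genes 6.19% had more and 7.46% fewer bases in epithelium, and 1.49% had more and 1.64% fewer peaks. In the number of peaks 1 of each list passed, Trp63 and Prrx1, and Col1a1 did not pass in bases when scaled within its chromosome (adjusted p = 0.444). Trp63, which specifies stratified epithelium, had 7.86 to 15.9 kb under peaks in epithelium and 0.957 to 4.83 kb in mesenchyme. Open chromatin in fewer cells and less open chromatin per cell cannot be told apart in these pooled libraries, and a site with no listed peak may still be open.

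An elastic fibre has a core of cross-linked elastin laid down on a scaffold of microfibrils. Fibrillins polymerise into the microfibrils, microfibril-associated glycoproteins decorate them, fibulins carry tropoelastin onto them, and lysyl oxidase joins the elastin chains through their lysines. Microfibrils also hold latent TGF-beta in the matrix. In most tissues these proteins are made by mesenchymal cells, and epithelia meet microfibrils at the basement membrane.

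Fewer bases lay under peaks in epithelium at 3 of the 10 genes, Fbn1, Eln and Mfap4, and at none were there more. These calls are from a limma fit across 21736 genes with Benjamini-Hochberg adjustment, in which 7.46% of genes were lower and 6.19% higher in epithelium at an adjusted p under 0.05. The median difference over the 10 genes was -0.25 on the log2 scale of bases, against -0.01 over all genes tested. In 6 of the 10 (Fbn1, Fbn2, Eln, Fbln5, Mfap4 and Lox) every epithelium library had fewer covered bases than every mesenchyme library, a pattern that 17.2% of all genes showed. The opposite pattern was seen at 0 of the 10 and at 14.9% of all genes. The 3 calls depended on the processing: without scaling the differences were larger, -0.61 at Fbn1, -0.44 at Eln and -0.52 at Mfap4, but their limma adjusted p-values were 0.0823, 0.0999 and 0.108, and none passed. With a reach of 10 kb in place of 100 kb the differences were -0.41 at Fbn1, -0.46 at Eln and -0.21 at Mfap4, with limma adjusted p-values of 0.25, 0.185 and 0.25.

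The number of peaks gave no call. None of the 10 genes passed in the limma fit of peaks per gene, in which 1.64% of genes were lower and 1.49% higher in epithelium. At an unadjusted p under 0.05, 4 of the 10 were lower and 0 higher, against 10.5% of all genes lower and 7.42% higher. The median difference in peaks was -0.13 on the log2 scale over the 10 genes and -0.02 over all genes. Epithelium was below mesenchyme in every library at 3 of the 10 (Fbn1, Eln and Mfap4), against 13% of all genes, and above it at 0, against 9.08% of all genes.

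**Figure D1:**
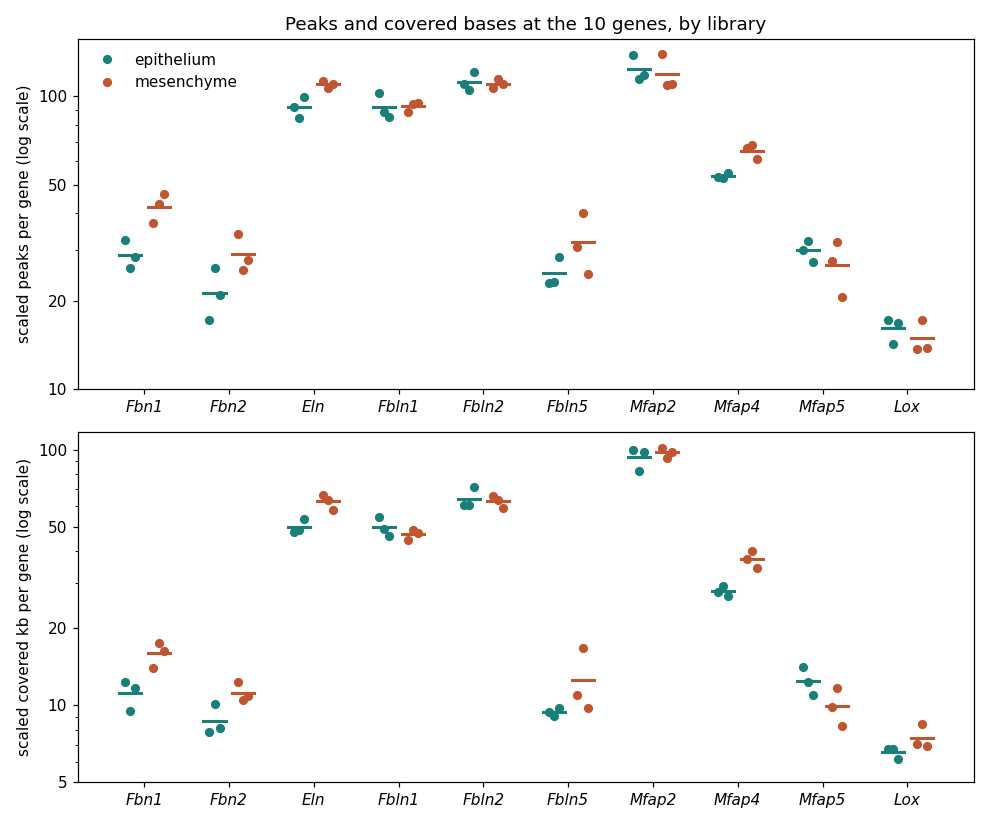
Scaled peaks (upper panel) and scaled kb under peaks (lower panel) at each of the 10 genes, both on log axes, with 1 point per library, a line at each mean, and the 3 epithelium libraries to the left of the 3 mesenchyme libraries. At Fbn1, Eln and Mfap4 the epithelium points lie below the mesenchyme points in both panels.

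**Figure D2:**
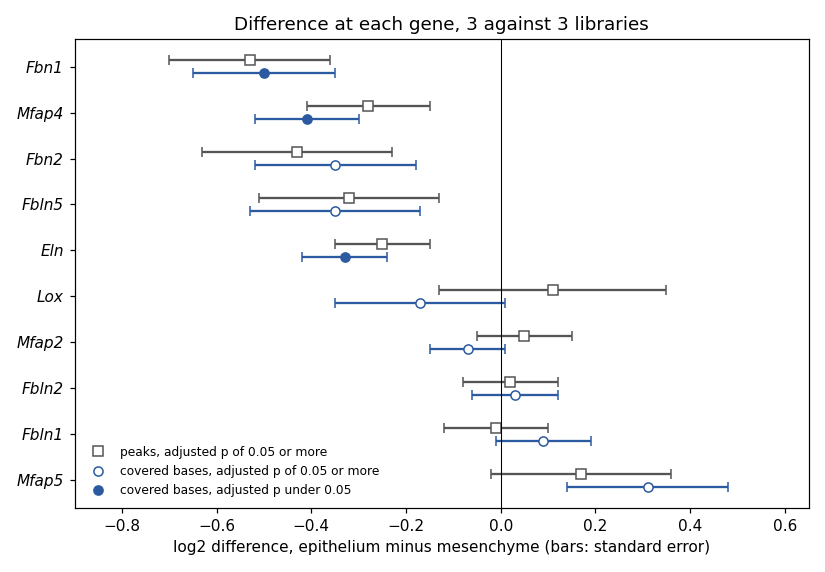
Log2 difference, epithelium minus mesenchyme, in peaks (squares) and in covered bases (circles) at each gene, with bars of 1 standard error and filled symbols at an adjusted p under 0.05. The filled circles are Fbn1 at -0.50, Mfap4 at -0.41 and Eln at -0.33.

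Fbn1 encodes fibrillin-1, the main structural protein of microfibrils. The gene lies on the minus strand of chromosome 2, 125300594 to 125507993 (GENCODE M21, build GRCm38.p6, which is mm10), and the window used here spanned 307.4 kb. After scaling to the mean library, peaks covered 12.3, 9.51 and 11.7 kb of it in epithelium, against 14.0, 17.6 and 16.3 kb in mesenchyme. The 3 epithelium libraries lay below all mesenchyme libraries. The difference was -0.50 ± 0.15 (SE) on the log2 scale, a ratio of 0.71, with a limma adjusted p of 0.0309. Peaks numbered 32.3, 25.9 and 28.3 in epithelium and 36.9, 42.8 and 46.4 in mesenchyme, again without overlap, and their log2 difference of -0.53 ± 0.17 (SE) had a limma adjusted p of 0.0643. Counting only peaks of at least 300 bp, the difference was -0.88, with a limma adjusted p of 0.0412. Chromosome 2 as a whole held 7.69 to 7.92% of covered bases in epithelium and 8.30 to 8.59% in mesenchyme, and with scaling within the chromosome the difference in bases at Fbn1 was -0.40, with a limma adjusted p of 0.0838. The call was also lost without epithelium library 2 (adjusted p = 0.154), mesenchyme library 2 (0.125) or mesenchyme library 3 (0.08).

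At the promoter of Fbn1 the tissues overlapped. The start site of its principal transcript lay under a peak in all 6 libraries, 1842, 2145 and 2069 bp wide in epithelium and 2677, 2004 and 2480 bp wide in mesenchyme, so the widths overlapped. The annotated 5′ end of the gene, further upstream, had no peak in any library. Of 47 regions kept around Fbn1, a region being merged peaks present in at least 2 libraries, 3 were present in all 6 libraries and 42 were mixed. The last intron region before the 3′ end, chr2:125301991-125303503, went the other way from the gene as a whole: peaks covered 1140, 1355 and 1401 bp of it in epithelium, against 0, 346 and 418 bp in mesenchyme. It was singled out after its values were seen.

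Regions present in all 3 libraries of one tissue and in none of the other are called epithelium-only or mesenchyme-only below. Fbn1 had 1 of each. The epithelium-only region was in an intron, 56.04 kb into the gene (chr2:125451798-125452108), under peaks of 199, 311 and 203 bp. The mesenchyme-only region lay upstream of the gene between genes, under peaks of 317, 316 and 232 bp.

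Fbn2 encodes fibrillin-2, the fibrillin best known from embryonic tissue. It lies on chromosome 18, 58008623 to 58210487, on the minus strand. Its peaks covered 7.84, 10.1 and 8.17 kb in epithelium, against 12.3, 10.5 and 10.9 kb in mesenchyme. Epithelium was lower in every library, but the log2 difference of -0.35 ± 0.17 (SE) had a limma adjusted p of 0.153. Peaks numbered 17.3, 25.9 and 21.0 in epithelium and 33.8, 25.5 and 27.6 in mesenchyme, so epithelium library 2 overlapped the mesenchyme range. The Fbn2 start site lay under a peak in all 6 libraries. Both tissue-only regions of Fbn2 were mesenchyme-only and in its introns, 49.61 and 63.29 kb into the gene. Another intron region, 133.9 kb into the gene and chosen after its values were seen, had peak bases in 1 epithelium library (298 bp) and in all 3 mesenchyme libraries (860, 725 and 553 bp).

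Eln encodes tropoelastin, the monomer of the fibre's core. The gene lies on the minus strand of chromosome 5, 134702593 to 134747323. Peaks in its window covered 47.5, 48.5 and 53.7 kb in epithelium and 66.7, 63.8 and 58.3 kb in mesenchyme, with no overlap. The log2 difference was -0.33 ± 0.09 (SE), a ratio of 0.79, with a limma adjusted p of 0.0182. Scaling within the chromosome left it at -0.28, with a limma adjusted p of 0.0467. The call was lost without epithelium library 1 (adjusted p = 0.0635), epithelium library 2 (0.0595), mesenchyme library 1 (0.0852) or mesenchyme library 2 (0.0633). The number of peaks, 92.3, 84.7 and 99.7 in epithelium and 113, 107 and 110 in mesenchyme, did not overlap either, but its log2 difference of -0.25 ± 0.10 (SE) had a limma adjusted p of 0.179.

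Regions around Eln that both tissues shared were often wider in mesenchyme. Of 97 kept regions, 34 had peaks in all 6 libraries, and in 13 of those 34 every mesenchyme library had more peak bases than every epithelium library. The opposite was seen in 1 of the 34. Of all regions in the genome with peaks in all 6 libraries, 10.6% showed the first pattern and 6.26% the opposite. These widths were not scaled to the list totals. Inside the gene, 5.77 kb from the start (chr5:134739719-134743384), an intron region held 1496, 1815 and 2180 bp under peaks in epithelium and 2662, 2589 and 2665 bp in mesenchyme. A broad region 16.5 kb upstream (chr5:134760433-134767145) held 2241, 3466 and 2732 bp in epithelium, against 4693, 5760 and 4257 bp in mesenchyme. The exception, 40.3 kb upstream, held 1050, 830 and 1584 bp in epithelium and 828, 594 and 655 bp in mesenchyme. The start site itself lay under peaks of 1926, 2949 and 1843 bp in epithelium and 3421, 2467 and 2215 bp in mesenchyme, which overlapped. The window also holds the start of Limk1, a kinase gene next to Eln, and 4 of the 13 regions were in or at Limk1.

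Eln had 2 mesenchyme-only regions and no epithelium-only region. One was in an intron of Limk1, with 460, 758 and 436 bp under peaks in the mesenchyme libraries, and the other 22.0 kb upstream between genes, with 243, 401 and 374 bp. The central 300 bp of the upstream region are shown as the mesenchyme-only region nearest to the Eln start, on the plus strand of GRCm38.p6 at chr5:134769196-134769495, with capitals at a SOX match that shares its last base with an NF1 match, a Twist-type E-box and an AP-1 match.

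Eln -22.0 kb: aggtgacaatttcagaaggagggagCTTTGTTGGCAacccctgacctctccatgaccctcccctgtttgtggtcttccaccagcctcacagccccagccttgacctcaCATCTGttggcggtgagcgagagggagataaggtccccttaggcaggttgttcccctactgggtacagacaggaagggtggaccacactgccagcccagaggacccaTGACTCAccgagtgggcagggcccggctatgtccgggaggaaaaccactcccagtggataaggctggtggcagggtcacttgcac

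Lox encodes the copper enzyme that oxidises lysines of elastin and collagen. On chromosome 18, at 52516067 to 52529867, it had the fewest kept regions of the 10 genes, 19, and none was epithelium-only or mesenchyme-only. Peaks covered 6.73, 6.76 and 6.18 kb in epithelium and 7.04, 8.46 and 6.92 kb in mesenchyme. Epithelium was lower in every library, with a log2 difference of -0.17 ± 0.18 (SE) and a limma adjusted p of 0.553. Peaks numbered 17.3, 14.3 and 16.8 in epithelium and 13.7, 17.3 and 13.8 in mesenchyme, with overlap and a log2 difference of 0.11. The annotated Lox start lay under a peak in all 6 libraries, 293, 1902 and 363 bp wide in epithelium and 1729, 2102 and 1947 bp wide in mesenchyme. Those widths are of the 1 peak over that base. At the start of the principal transcript the peak was 1236 and 1902 bp wide in epithelium libraries 1 and 2 and absent in library 3. The merged region over both starts, chr18:52528127-52530228, held 1529, 1902 and 1636 bp in epithelium. In mesenchyme it held 1729, 2102 and 1947 bp, so the tissues overlapped.

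Fbln5 encodes fibulin-5, which binds tropoelastin and is required for elastic fibres to form. It lies on the minus strand of chromosome 12, 101746565 to 101819055. Peaks covered 9.44, 9.12 and 9.78 kb in epithelium and 11.0, 16.8 and 9.81 kb in mesenchyme. The groups did not overlap, but the highest epithelium and lowest mesenchyme values nearly met, and mesenchyme library 2 stood above the other mesenchyme libraries. The log2 difference was -0.35 ± 0.18 (SE), with a limma adjusted p of 0.178. In peaks the groups overlapped, at 23.1, 23.2 and 28.3 in epithelium and 30.6, 40.1 and 24.7 in mesenchyme.

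Fbln5 was the gene of the 10 with the most tissue-only regions inside its own body. All 3 were mesenchyme-only and intronic, at 29.54, 44.75 and 52.34 kb from the start. Peaks in the mesenchyme libraries were 303, 305 and 502 bp wide at the first, 291, 233 and 302 bp at the second and 294, 321 and 215 bp at the third, and no epithelium library had a peak at any of them. The start site of Fbln5 was under a peak in all 6 libraries, 1339, 1334 and 845 bp wide in epithelium and 1170, 1998 and 2048 bp wide in mesenchyme. The central 300 bp of the 3 intron regions are given because they are the cluster of mesenchyme-only regions in the body of a member, on the plus strand at chr12:101789364-101789663, chr12:101774156-101774455 and chr12:101766563-101766862. Capitals mark an NF1 match in the first; a TEAD match, 2 Snai/Zeb-type E-boxes, a Twist-type E-box and an NF1 match in the second; and a SOX match and an NF1 match in the third.

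Fbln5 29.54 kb: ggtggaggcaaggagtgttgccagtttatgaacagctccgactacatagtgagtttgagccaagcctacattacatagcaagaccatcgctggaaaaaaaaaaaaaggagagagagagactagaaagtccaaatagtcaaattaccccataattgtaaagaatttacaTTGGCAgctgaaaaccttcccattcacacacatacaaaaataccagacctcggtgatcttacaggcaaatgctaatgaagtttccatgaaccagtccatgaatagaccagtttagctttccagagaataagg
Fbln5 44.75 kb: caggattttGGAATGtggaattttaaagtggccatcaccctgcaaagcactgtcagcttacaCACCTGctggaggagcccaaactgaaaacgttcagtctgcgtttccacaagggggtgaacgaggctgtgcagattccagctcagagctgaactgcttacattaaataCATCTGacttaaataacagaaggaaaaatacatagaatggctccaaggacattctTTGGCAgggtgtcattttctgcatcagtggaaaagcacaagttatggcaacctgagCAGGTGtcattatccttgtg
Fbln5 52.34 kb: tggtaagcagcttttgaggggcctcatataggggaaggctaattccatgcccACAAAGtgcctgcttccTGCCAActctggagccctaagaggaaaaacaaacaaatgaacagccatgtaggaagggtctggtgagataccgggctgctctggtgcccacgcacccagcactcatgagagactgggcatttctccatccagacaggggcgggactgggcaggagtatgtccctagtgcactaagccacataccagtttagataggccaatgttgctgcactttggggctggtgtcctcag

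Fbln1 and Fbln2, whose products are found in basement membranes and around elastic fibres, showed no difference that passed. Around Fbln1 (chromosome 15, 85205949 to 85286535) peaks covered 54.5, 48.9 and 46.0 kb in epithelium and 44.2, 48.5 and 47.2 kb in mesenchyme, with a log2 difference of 0.09 ± 0.10 (SE). Around Fbln2 (chromosome 6, 91212455 to 91272540) they covered 60.6, 60.8 and 71.5 kb in epithelium and 65.9, 63.4 and 59.2 kb in mesenchyme, with a difference of 0.03 ± 0.09 (SE). The groups overlapped at both genes, and the limma adjusted p was 0.572 for Fbln1 and 0.86 for Fbln2. The sign of both differences depended on the scaling: without it they were -0.02 and -0.08. Peaks at Fbln1 numbered 103, 88.3 and 85.0 in epithelium and 88.6, 93.9 and 94.8 in mesenchyme, and at Fbln2 they numbered 110, 105 and 121 in epithelium and 107, 115 and 110 in mesenchyme. These also overlapped, with log2 differences of -0.01 at Fbln1 (0.02 with scaling within the chromosome) and 0.02 at Fbln2 (-0.04 without scaling).

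Most regions around Fbln1 overlapped between the tissues. Of its 26 regions with peaks in all 6 libraries, 22 overlapped in peak bases. In 2 every epithelium library had more, and in 2 every mesenchyme library did. The shares over all such regions in the genome were 6.26% and 10.6%, in widths that were not scaled. The 2 regions described next are 1 of each direction, picked because they did not overlap. An intron region 25.94 kb into the gene held 1079, 878 and 757 bp under peaks in epithelium and 278, 738 and 495 bp in mesenchyme. At 45.92 kb, a region over an exon held 869, 651 and 742 bp in epithelium, against 1054, 910 and 1109 bp in mesenchyme. The mesenchyme-only region of Fbln1 lay 21.4 kb upstream between genes, under peaks of 223, 382 and 209 bp. It was no longer mesenchyme-only when merged peaks had to overlap by at least 100 bp. It is shown because it holds the only RUNX match among the 13 mesenchyme-only regions, on the plus strand at chr15:85184410-85184709, with capitals at a Snai/Zeb-type E-box, the RUNX match and a TEAD match.

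Fbln1 -21.4 kb: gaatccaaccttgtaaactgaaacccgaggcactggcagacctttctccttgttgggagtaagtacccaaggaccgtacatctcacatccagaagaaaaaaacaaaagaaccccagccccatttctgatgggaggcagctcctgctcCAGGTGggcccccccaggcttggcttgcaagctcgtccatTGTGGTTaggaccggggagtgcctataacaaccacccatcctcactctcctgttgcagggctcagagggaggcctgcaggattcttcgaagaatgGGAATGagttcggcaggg

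Fbln2 had 2 epithelium-only regions, 97.6 kb upstream in an intron of Nup210 and 91.4 kb upstream between genes. The base at its annotated start was under a peak in epithelium library 2 and in mesenchyme libraries 1 and 3 only, with widths of 1788 bp in that epithelium library and 1633 and 1741 bp in the mesenchyme libraries. The merged region over the start, chr6:91211416-91214137, had peaks in all 6 libraries. It held 1571, 1788 and 2182 bp in epithelium and 1992, 1924 and 2018 bp in mesenchyme, which overlapped. Inside the gene, 27.39 kb from the start, an intron region held 478, 729 and 520 bp in epithelium and 214, 418 and 309 bp in mesenchyme. Of 36 regions around Fbln2 with peaks in all 6 libraries, it was the only 1 with more bases in every epithelium library. In 3 of the 36 every mesenchyme library had more, and 32 overlapped.

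Mfap4 encodes a fibrinogen-related protein that binds elastin and microfibrils. The gene is short, 3.5 kb on chromosome 11 (61485431 to 61488900). Peaks in its window covered 27.7, 29.4 and 26.9 kb in epithelium and 37.5, 40.0 and 34.4 kb in mesenchyme, with no overlap. The log2 difference was -0.41 ± 0.11 (SE), a ratio of 0.75, with a limma adjusted p of 0.0165. Peaks numbered 53.1, 52.6 and 54.6 in epithelium and 66.5, 68.3 and 61.2 in mesenchyme, with a log2 difference of -0.28 ± 0.13 (SE) and a limma adjusted p of 0.222. Within 10 kb of the start the difference in peaks turned to 0.32, with a limma adjusted p of 0.698. Chromosome 11 as a whole held 7.51 to 7.70% of covered bases in epithelium and 8.44 to 8.93% in mesenchyme, and scaled within the chromosome the difference at Mfap4 was -0.21, with a limma adjusted p of 0.216. The call was also lost without mesenchyme library 2 (adjusted p = 0.0822).

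Within 10 kb of the Mfap4 start the difference in covered bases was -0.21, with a limma adjusted p of 0.25. One peak overlapped its start site in every library, and that peak was 1842, 1973 and 1843 bp wide in epithelium and 2510, 5475 and 5654 bp wide in mesenchyme. Every mesenchyme width exceeded every epithelium width, with mesenchyme library 1 well below the other mesenchyme libraries. Peaks with a midpoint in the gene body covered 1.22, 1.94 and 1.60 kb in epithelium and 4.02, 5.48 and 5.65 kb in mesenchyme before scaling. Counted over the gene body alone, a window added after the data were seen, the log2 difference was -1.32, with a limma adjusted p of 0.0608, and it rested on 1 or 2 peaks a library. The merged region over the start, chr11:61483131-61491936, which also spans the start of the kinase gene Mapk7, held 5250, 6781 and 6074 bp in epithelium and 6813, 8425 and 8222 bp in mesenchyme.

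Around Mfap4 there were 3 mesenchyme-only regions and no epithelium-only region. The nearest lay 5.0 kb upstream between genes (chr11:61480073-61480700), under peaks of 599, 433 and 340 bp. The others lay 27.99 kb downstream between genes, with 441, 262 and 415 bp, and 54.02 kb downstream in an intron of Epn2, with 283, 536 and 199 bp. The upstream region is shown because it is the tissue-only region closest to the start of any of the 10 genes, on the plus strand at chr11:61480237-61480536, with capitals at a Snai/Zeb-type and a Twist-type E-box.

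Mfap4 -5.0 kb: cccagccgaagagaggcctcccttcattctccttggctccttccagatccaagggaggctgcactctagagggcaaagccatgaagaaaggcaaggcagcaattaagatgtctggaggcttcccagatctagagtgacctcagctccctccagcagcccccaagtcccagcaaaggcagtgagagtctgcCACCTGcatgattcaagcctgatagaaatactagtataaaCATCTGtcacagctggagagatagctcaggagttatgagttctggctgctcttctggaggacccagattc

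**Figure D3:**
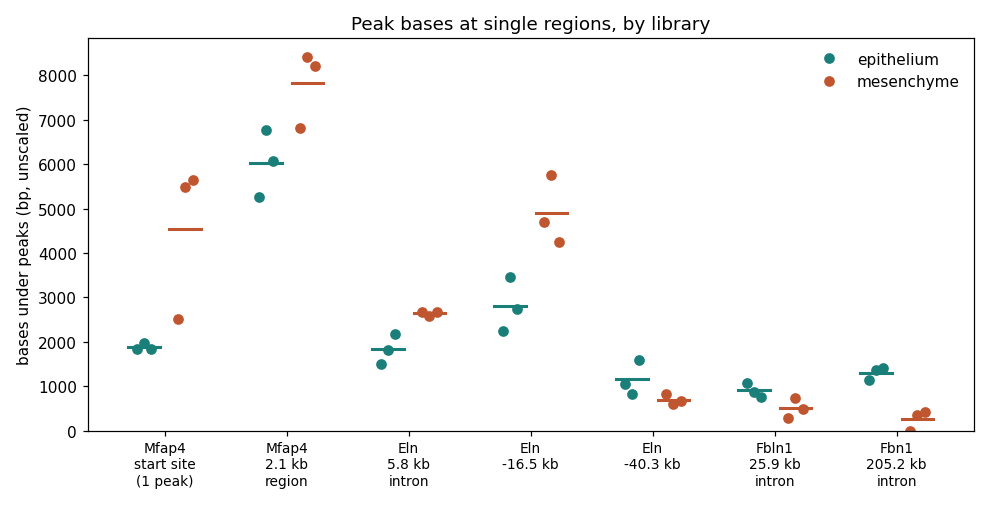
Bases under peaks (bp, unscaled) at the start-site peak and single regions of Mfap4, Eln, Fbln1 and Fbn1, with 1 point per library, a line at each mean, and epithelium to the left of mesenchyme. The Mfap4 start-site peak, its merged region and the Eln regions at 5.8 and -16.5 kb are lower in epithelium in every library. The Eln region at -40.3 kb and the intron regions of Fbln1 and Fbn1 are higher in epithelium in every library. The merged Mfap4 region and the Eln and Fbln1 regions were chosen as the widest without overlap between the tissues. Their separation was therefore fixed by that choice. The Fbn1 region was singled out after its values were seen.

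Mfap2 and Mfap5 encode the small glycoproteins MAGP-1 and MAGP-2, which bind fibrillins. Around Mfap2 (chromosome 4, 141010418 to 141015984) peaks covered 99.7, 82.2 and 98.0 kb in epithelium and 102, 93.1 and 97.7 kb in mesenchyme, with overlap and a log2 difference of -0.07 ± 0.08 (SE). Its peaks numbered 138, 115 and 118 in epithelium and 140, 109 and 110 in mesenchyme, also with overlap, and differed by 0.05 (-0.01 without scaling). Its window holds the starts of 5 other genes and 48 regions present in all 6 libraries, more than any other of the 10 genes. In 9 of those 48, most of them in Padi2, Sdhb or Crocc, every mesenchyme library had more peak bases, and in 1 of the 48 every epithelium library did. The shares over all such regions in the genome were 10.6% and 6.26%. The Mfap2 start was under a peak of 2224, 2956 and 3049 bp in epithelium and 3328, 3361 and 3088 bp in mesenchyme. Every epithelium peak was narrower, in widths that were not scaled to the list totals. The merged region over the start held 3711, 3545 and 3778 bp in epithelium and 3900, 3891 and 3695 bp in mesenchyme, which overlapped.

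Mfap5 had the largest positive difference in covered bases of the 10 genes, and it did not pass. Peaks around it (chromosome 6, 122505845 to 122529290) covered 14.1, 12.3 and 11.0 kb in epithelium and 9.86, 11.7 and 8.33 kb in mesenchyme, with a log2 difference of 0.31 ± 0.17 (SE) and a limma adjusted p of 0.211. The groups overlapped through mesenchyme library 2. Peaks numbered 30.0, 32.1 and 27.3 in epithelium and 27.4, 31.9 and 20.7 in mesenchyme, with overlap and a log2 difference of 0.17. Neither annotated start of Mfap5 was under a peak in any of the 6 libraries, and it was the only one of the 10 genes of which this was so. The epithelium-only region in its window, with 877, 1087 and 672 bp under peaks, was in an intron of Apobec1, 92.92 kb away, and the mesenchyme-only region was 89.5 kb upstream.

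Over the 10 genes together, 599 regions were kept. Of these 5 (0.835%) were epithelium-only, against 2.98% of all 342690 kept regions, and 13 (2.17%) were mesenchyme-only, against 2.2% of all. The mesenchyme-only share was therefore near the background. With merged peaks overlapping by at least 100 bp the counts were 4 and 10: Fbn1, Fbln1 and Mfap5 then had no mesenchyme-only region and Mfap2 no epithelium-only region. Only 1 of the 5 and 5 of the 13 lay in the body of the gene they were counted for. Regions present in all 6 libraries numbered 173 (28.9%), against 19.1% of all kept regions. In 33 of these 173 (19.1%) every mesenchyme library had more peak bases than every epithelium library, against 10.6% of all such regions in the genome, and in 6 (3.47%) every epithelium library had more, against 6.26%. These widths were not scaled, and 25 of the 33 were counted for Eln, Mfap2 or Mfap4.

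**Figure D4:**
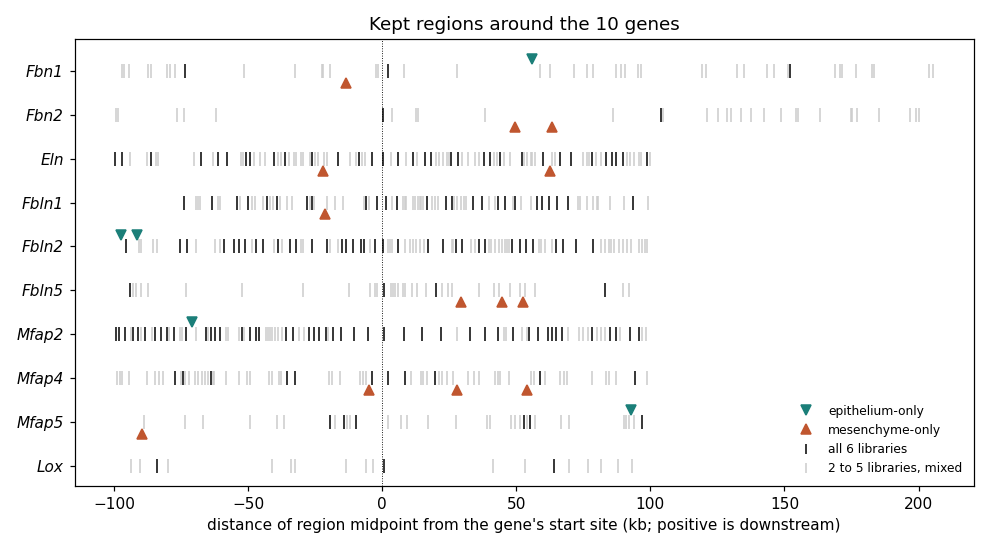
Kept regions of each gene by the distance of their midpoint from the gene's start site (kb, positive downstream), with triangles pointing down for the 5 epithelium-only regions, triangles pointing up for the 13 mesenchyme-only regions, black ticks for regions in all 6 libraries and grey ticks for mixed regions. The 3 Fbln5 and 2 Fbn2 mesenchyme-only regions lie inside their genes, and Lox has no tissue-only region.

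The letters of the 18 tissue-only regions were searched, in the central 300 bp and on both strands, for 12 motifs: AP-1 TGAGTCA, RUNX TGTGGTT, TEAD GGAATG, NF1 TTGGCA, SOX ACAAAG, a Twist-type E-box CAGATG, a Snai/Zeb-type E-box CAGGTG, the homeobox core TAATTA, GRHL AACCNGTT, KLF CCCCACCC, a SMAD pair GTCTGTCT and the SRF box. NF1 was in 6 of the 13 mesenchyme-only and 4 of the 5 epithelium-only regions. Over the genome it was in 20.4% of mesenchyme-only, 20.2% of epithelium-only and 16.4% of all kept regions. The same order is used for the other motifs. The Twist-type E-box was in 5 and 1 (25.5%, 23.0% and 24.9%) and TEAD in 4 and 0 (17.2%, 27.1% and 16.9%). The Snai/Zeb-type E-box was in 3 and 2 (19.1%, 29.9% and 27.9%) and SOX in 2 and 2 (19.5%, 34.0% and 19.9%). AP-1 was in 2 and 0 (7.28%, 12.2% and 6.35%) and RUNX in 1 and 0 (13.6%, 8.52% and 6.77%). The remaining 5 motifs were in none of the 18 windows. They were in 1.38 to 7.11% of mesenchyme-only, 1.51 to 6.35% of epithelium-only and 1.21 to 7.87% of all kept regions. A match is a run of letters and was not tested as a binding site.

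The proteins that work with these genes were followed in the same way, in 6 lists of 51 genes. In covered bases 8 of the 51 were lower and 2 higher in epithelium by limma, against 7.46% and 6.19% of all genes, and the median difference was -0.07 on the log2 scale, against -0.01 over all genes. In peaks 3 of the 51 were lower and 0 higher, against 1.64% and 1.49% of all genes. At an unadjusted p under 0.05 there were 9 lower and 2 higher, against 10.5% and 7.42% of all genes. The median difference in peaks was -0.06, against -0.02 over all genes. The adjusted p-values that follow are from the same limma fits, and the values within the chromosome are those after scaling to the gene's own chromosome.

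Among 15 partners of microfibrils and elastin, Emilin1 and Emilin2, glycoproteins at the interface of elastin and microfibril, had fewer covered bases in epithelium, by -0.30 (adjusted p = 0.0468) and -0.53 (adjusted p = 0.0328), and neither passed within its chromosome (0.0997 and 0.0599). Hmcn2, which encodes hemicentin-2 of the fibulin family, was lower by -0.36 (adjusted p = 0.00619, 0.0435 within the chromosome). Efemp1, which encodes fibulin-3, was higher, with 8.13, 4.79 and 3.96 kb in epithelium and 3.86, 2.50 and 2.87 kb in mesenchyme (adjusted p = 0.0441, 0.0187 within the chromosome). Mfap1a, which shares the name of the microfibril genes but whose product works in the spliceosome, had fewer peaks in epithelium (log2 difference -0.65, adjusted p = 0.00865, 0.0262 within the chromosome).

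Of 8 genes of the Adamts and Adamtsl families that act on microfibril assembly, Thsd4, which promotes assembly of fibrillin-1, had fewer peaks (-0.40, adjusted p = 0.0195) and fewer covered bases (-0.32, adjusted p = 0.042) in epithelium, and passed in neither within its chromosome (0.0621 and 0.0916). Adamtsl3 had fewer covered bases (-0.45, adjusted p = 0.0437, 0.0389 within the chromosome), although its libraries overlapped. Adamts6 had the largest difference in peaks of that list, -0.44, with an adjusted p of 0.365.

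The receptor list held the largest difference that passed in these lists. Itgb3, a subunit of the integrin that binds fibrillins through their RGD motif, had 26.5, 27.6 and 32.5 peaks in epithelium and 49.6, 53.8 and 53.3 in mesenchyme (adjusted p = 0.00139, 0.00965 within the chromosome). Its covered bases differed by -0.83 (adjusted p = 0.000261). Itgb8, a subunit of an integrin that activates latent TGF-beta, had more covered bases in epithelium, 5.88, 5.31 and 5.27 kb, against 3.32, 3.58 and 2.11 kb in mesenchyme (adjusted p = 0.0193, 0.048 within the chromosome).

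Of 8 genes of matrix breakdown, Mmp2 and Mmp9, gelatinases that can cut elastin, had fewer covered bases in epithelium, by -0.50 (adjusted p = 0.0364, 0.0622 within the chromosome) and -0.49 (adjusted p = 0.000625, 0.00395 within the chromosome). Ctsk, which encodes cathepsin K, had the largest difference in peaks of the list, -0.52, with an adjusted p of 0.188. None of the 4 latent TGF-beta binding proteins and none of the 8 cross-linking genes passed in either measure. At an unadjusted p under 0.05 limma had 1 of the 4 and 2 of the 8 lower in covered bases, against 16.4% of all genes, and 0 of either list in peaks. The largest differences in peaks there were 0.06 for Ltbp1 and 0.55 for Atp7a, the copper pump that loads lysyl oxidase, with an adjusted p of 0.37.

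The fibrillar collagens, another group of matrix genes, were set beside the 10 genes. Of 11 collagen genes 2 were lower and 0 higher in covered bases in epithelium, against 7.46% and 6.19% of all genes. They were Col5a1 by -0.59 (adjusted p = 8.99e-05, 0.000723 within the chromosome) and Col1a1 by -0.30 (adjusted p = 0.0157, 0.444 within the chromosome). Col11a1 had the largest difference in peaks, -0.64, with an adjusted p of 0.355. The median over the 11 was -0.18 in covered bases, against -0.25 over the 10 elastic fibre and microfibril genes, and the difference between the lists was not tested.

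Cells other than epithelium and mesenchyme were followed through their markers, since vessels and muscle can run in this tissue. Of 8 genes of vascular smooth muscle and pericytes, cells that also make elastin and fibrillin-1, 1 was lower in covered bases in epithelium, against 7.46% of all genes. It was Notch3, lower by -0.32 (adjusted p = 0.0298), and it did not pass within its chromosome (0.0598). The summed covered bases of that list were 273 to 286 kb in epithelium and 306 to 315 kb in mesenchyme, and none of its genes was at 0 in all libraries. Of 8 endothelium genes 1 was higher and 0 lower in covered bases in epithelium, against 6.19% and 7.46% of all genes. It was Tek, higher by 0.78 (adjusted p = 0.0262, 0.0263 within the chromosome), while 7 of the 8 had negative differences. The endothelium list summed to 146 to 165 kb in epithelium and 158 to 169 kb in mesenchyme. Of 6 skeletal muscle genes 1 was lower and 1 higher in covered bases in epithelium, against 7.46% and 6.19% of all genes. Mylpf was lower by -0.55 (adjusted p = 0.000779, 0.000572 within the chromosome). Actn2 was higher by 0.50 (adjusted p = 0.0481) and did not pass within its chromosome (0.40, adjusted p = 0.134). No gene of the cartilage and bone list passed, with 2 of 8 lower in covered bases at an unadjusted p under 0.05, against 16.4% of all genes. The part of these cells in the results at Fbn1, Eln and Mfap4 was not tested.

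The genes whose peak numbers were most like the mean of the 10 over the 6 libraries were sought among the 107 other genes of all lists. They were Fbln7, which encodes fibulin-7, with a Pearson correlation of 0.970, Adamtsl3 with 0.928 and Notch3 with 0.882. These points are the same 6 libraries for every gene and were scaled by the same list lengths. Fbln7 had 25.4, 21.4 and 25.2 peaks in epithelium and 30.6, 35.5 and 28.6 in mesenchyme, without overlap and with an adjusted p of 0.259.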

How the data were processed

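ATAC-seq libraries of palatal epithelium (3) and mesenchyme (3) were analysed as deposited peak lists. The authors, by the paper's methods and the submitters' processing notes, used Trimmomatic 0.38 to trim reads, mapped them to mm10 with Bowtie2, removed duplicates with SAMtools, kept fragments shorter than 100 bp and called peaks with MACS2 2.1.1 in each library. The threshold for a peak was not given in the sources used here. The deposited files give chromosome, start and end only, so depth in reads is unknown, no interval for counting error can be given, and a region near the authors' threshold may or may not be listed. The labels and methods give unequal numbers of embryos or shelves for a replicate, so p-values measure the spread between these libraries.

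Peaks on chromosomes 1 to 19, X and Y were assigned to protein-coding genes of GENCODE M21 by midpoint, in the body or within 100 kb of the start, so neighbouring genes share peaks. Peaks and covered bases per gene were scaled to the mean list total and tested as log2(peaks + 1) and log2(bases + 500) with limma 3.58.1 (R 4.3.3, mean trend, two-sided) over 21736 genes that averaged 1 peak or more per library, with Benjamini-Hochberg adjustment at 0.05. Fold changes are on these scales and understate low values. The fit of peaks per gene was run on simulated counts, and the fit of covered bases was not checked in this way. Peaks overlapping by at least 1 bp were merged, and regions with peaks in at least 2 libraries were kept. Sequences are from RefSeq's GRCm38.p6. Members, lists and tests were chosen with earlier results of these data known. Named list genes are those that passed, the largest difference in each list, and the 3 most like the members. Alternatives in both limma fits were other scalings and windows, a replicate block, and leaving out each library. No filter, another pseudocount, a minimum peak width and the nearest start site were tried in the fit of peaks per gene only. The study compared read counts, which were not analysed here. Some items withheld for evaluation are not reported here.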

Additional observations from a re-analysis of the deposited data

How the results depend on the processing

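In covered bases, leaving out 1 library at a time called between 0 and 3 of the 10 genes lower in epithelium and 0 higher, and between 1718 and 2598 genes in all, against 2968 with all libraries. The number lower was 0 with no scaling (807 genes called in all), 1 with scaling within each chromosome, 0 with a 10 kb reach (9 genes) and 0 with the gene body alone (25 genes), while at an unadjusted p under 0.05 limma had 5, 4, 4 and 5 of the 10 lower, against 15.3%, 14.8%, 8.06% and 6.46% of all genes. With no scaling the median of all genes moved to -0.118, against -0.012. In peaks, 680 genes were called in all, and 333 to 506 without 1 library. The number was 47 with no scaling, 427 within each chromosome, 27 with a 10 kb reach, 46 with the gene body alone, 1 with no filter and 0 with the nearest start site on each side, where limma at an unadjusted p under 0.05 had 1272 genes higher and 1495 lower. Peaks of at least 300 bp gave 1 of the 10 genes as lower, Fbn1 (-0.88, adjusted p = 0.0412).

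Several log2 differences in peaks changed sign, and none of them passed. They were Fbln1 at 0.02 within each chromosome, 0.05 with a 10 kb reach and 0.07 in the gene body; Fbln2 at -0.04 and Mfap2 at -0.01 with no scaling; Mfap2 at -0.09, Mfap4 at 0.32 and Mfap5 at -0.20 with a 10 kb reach; and Mfap4 at 0.04, Mfap5 at -0.09 and Lox at -0.16 in the gene body. In covered bases Fbln1 was at -0.02 and Fbln2 at -0.08 with no scaling, Fbln2 at -0.02 within each chromosome, and Mfap2 at 0.14 with a 10 kb reach and 0.13 in the gene body. Without 1 library the ranges that crossed 0 were -0.09 to 0.04 (Fbln1), -0.04 to 0.06 (Fbln2) and -0.03 to 0.17 (Mfap2) in peaks, and -0.05 to 0.07 (Fbln2) and -0.12 to 0.02 (Mfap2) in covered bases. The causes were not tested.

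Epithelium-only regions of the 10 genes numbered 4, and mesenchyme-only regions 10, with at least 100 bp of overlap. Epithelium-only regions numbered 12 when 1 peak in the other tissue was allowed, 3 with peaks of at least 300 bp, 1 with a 10 kb reach and 1 in the gene body, and 7 to 18 without 1 library. Mesenchyme-only regions numbered 30, 12, 6 and 5 under these last settings and 17 to 33 without 1 library, where the rule needs fewer peaks. Over all regions the counts were 19434 epithelium-only and 20486 mesenchyme-only with 1 peak allowed, and 12884 to 20972 and 10667 to 20183 without 1 library.

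Deviations of same-numbered libraries of the tissues had correlations of 0.0179, 0.0494 and -0.00904, and those of different-numbered libraries -0.0407 to 0.0195. All were small, and the numbers were not taken as pairs. Small correlations do not show that the libraries were unpaired. With a replicate block 995 genes were called in peaks and 3137 in covered bases, with 0 and 3 of the 10 lower. The gene body window was chosen after seeing the data. Precision is limited by 3 libraries a tissue, and by lists without read depth.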
